A study of Homo sapiens with 6 samples.

Results

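The genes described here encode the initiation factors (eIF) and elongation factors (eEF) of cytosolic translation. They were chosen by symbol, as the rows of the deposited expression table that start with EIF1 to EIF6 or with EEF1 or EEF2, leaving out the EIF2AK symbols of the eIF2 kinases. The rule found 60 rows of 18780, and used no measured value. RNA of PC-3 cells, an established human prostate cancer line, was sequenced in 6 libraries. Cells had been given trans-Gnetin H (TGH), a resveratrol trimer, at 2.5 µM for 24 h (n = 3), or DMSO as the control (n = 3). Both groups were the same line, grown in the same medium with serum, and the labels name no genetic change. The labels do not say whether the replicates were separate cultures, so the p-values below measure only the spread between these libraries, which may be technical.

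Translation begins when eIF2, loaded with GTP and initiator tRNA, joins the small ribosomal subunit together with eIF1, eIF1A, eIF3 and eIF5. The eIF4F complex, made of the cap-binding protein eIF4E, the scaffold eIF4G and the helicase eIF4A, brings this assembly to the capped end of an mRNA, and the 4E-binding proteins compete with eIF4G for eIF4E. Under stress, kinases phosphorylate the alpha subunit of eIF2, which then blocks eIF2B, the factor that recharges eIF2 with GTP. The elongation factors eEF1 and eEF2 deliver charged tRNAs and move the ribosome along.

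Values are TPM (a transcript's share of its library after division by length). Differences are TGH minus DMSO on the deposited log2(TPM + 1) scale, with limma's standard error and Benjamini-Hochberg adjusted p over the 12018 genes that averaged 1 TPM or more. A gene was called when the adjusted p was under 0.05. TPM is a share of a library, so less RNA of a gene per cell and more RNA of other genes cannot be told apart. Rows listed at 0 numbered 3074, 3185 and 1530 in DMSO replicates 1 to 3 and from 1342 to 1498 with TGH, so 2 control libraries stand apart at low levels. The epithelial markers KRT8 and KRT18 were at 604 and 578 TPM in DMSO and at 424 and 421 TPM with TGH. On the same marker list EPCAM went from 181 to 166 TPM, VIM from 126 to 106 TPM and CDH1 from 49.6 to 51.9 TPM. The part of the keratin fall in the results was not tested. In every library the 12 markers of fibroblasts, endothelium, immune cells and hepatocytes were at or below 0.456 TPM, except COL1A1 with at most 3.52 TPM.

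Of the 60 rows, 56 passed the filter on low values. Among these 14 were called higher with TGH, 22 were called lower and 20 were not called. Of all 12018 genes tested 55.2% were called, 28.9% higher and 26.3% lower. Counts for groups of these factors below are to be read beside these shares. The shares among the translation factors were 64.3%, 25% and 39.3%, and their median difference was -0.06 against 0.02 for all genes tested. Without EIF4EBP3, which passed the filter only through its TGH values, 13 of 55 were higher and 22 lower. With DMSO replicate 3 as the only control 12 of the 56 were higher and 21 lower. That fit has no spread among controls and takes it from TGH, as if both groups varied alike. For 32 of the 36 called genes the absolute difference stayed below 0.5. Groups did not overlap in 41 of the 56, and in 64.4% of all genes tested. The rows together made up 2.13% ± 0.0166 of the listed TPM in DMSO and 2.08% ± 0.0192 with TGH (SD, n = 3 each). These are shares of the listed rows, not of a whole library. All listed rows summed to means of 506854 TPM in DMSO and 514217 TPM with TGH, short of a full TPM total.

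**Figure D1:**
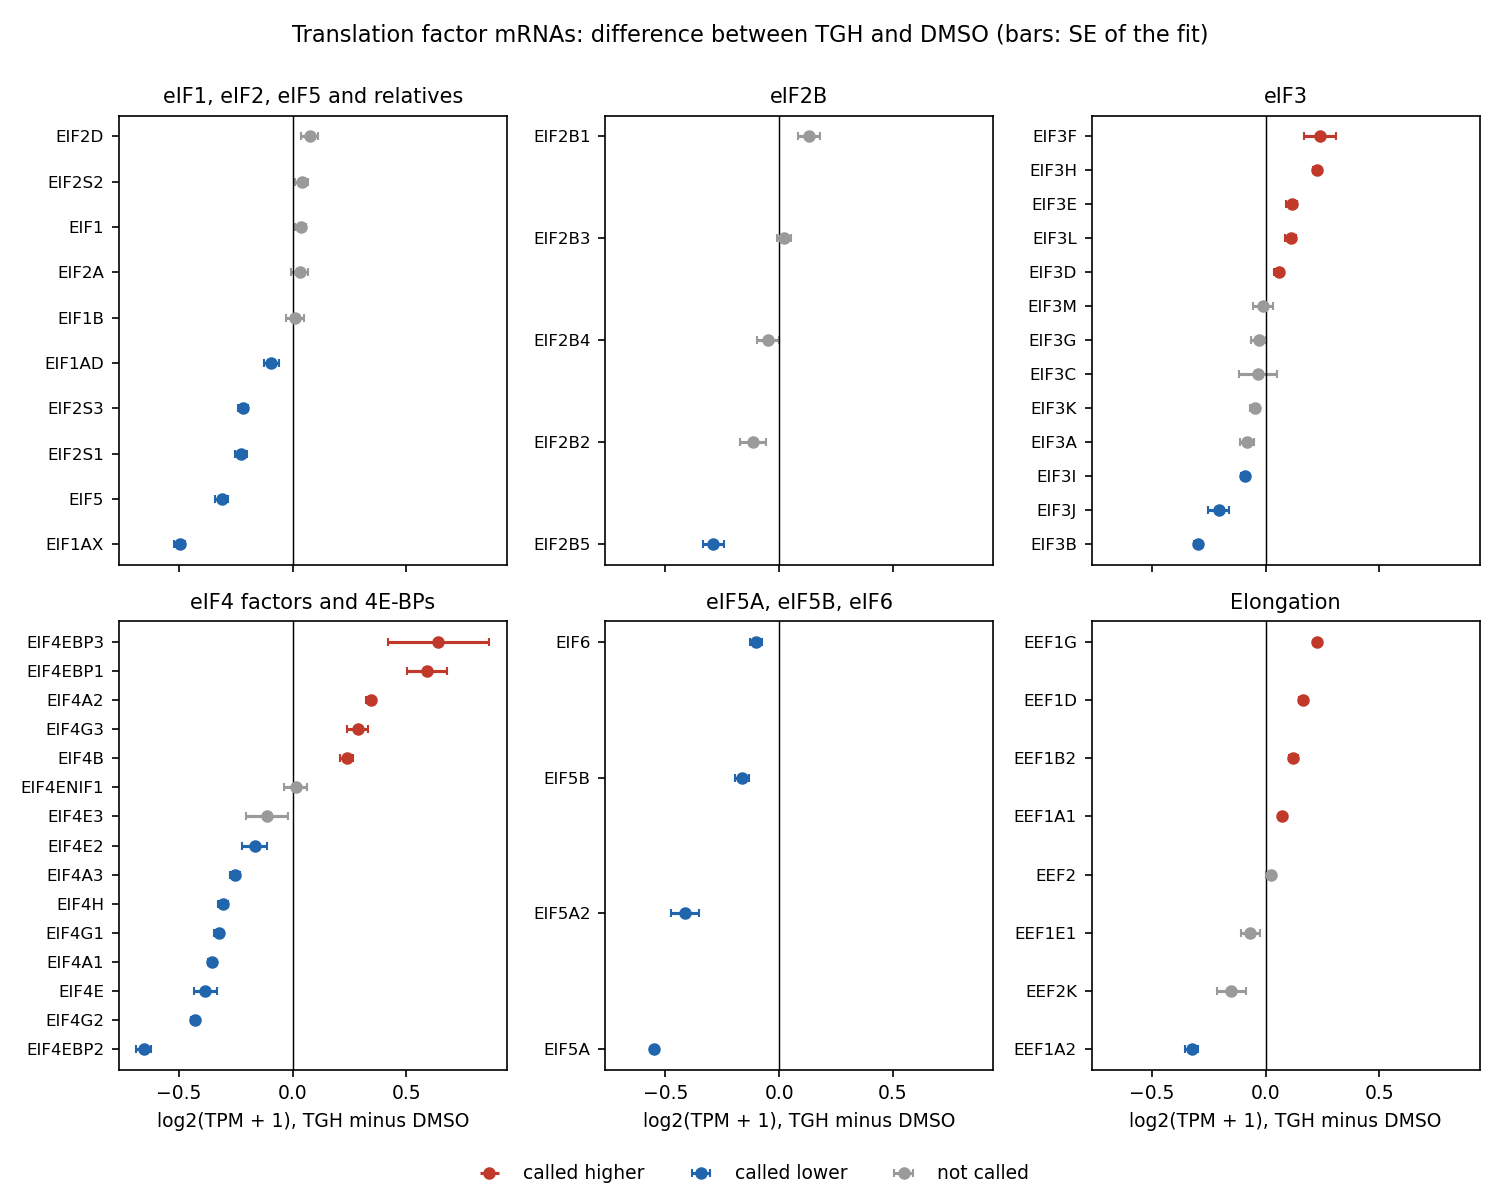
Differences of the tested translation factor mRNAs, except the readthrough row EEF1E1-MUTED, in 6 panels by role. The horizontal axis is the difference TGH minus DMSO on the log2(TPM + 1) scale, bars are the standard error of the fit, and colours mark calls. All 4 genes of the eIF5A, eIF5B and eIF6 panel lie below 0, while EEF1A1, EEF1B2, EEF1D and EEF1G lie above it.

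Among translation factor mRNAs above 2 TPM, the largest rise and the largest fall were both found in the 4E-binding proteins. EIF4EBP1, the main repressor of eIF4E and known as a target of the stress factor ATF4, was at 83.1, 107 and 102 TPM in DMSO and at 143, 146 and 149 TPM with TGH. All 3 TGH libraries were above all controls, and DMSO replicate 1 was the lowest library. It rose by 0.59 (SE 0.0879, limma adjusted p = 0.00149). EIF4EBP2, a second repressor of eIF4E, went the other way, from 21.8, 22.9 and 22.8 TPM to 14.0, 13.6 and 14.1 TPM, a difference of -0.66 (SE 0.0329, limma adjusted p = 1.63e-05). EIF4EBP3 was near the filter, at 0.711, 0.258 and 0.688 TPM in DMSO and 1.38, 2.18 and 0.820 TPM with TGH. It passed the filter only through its TGH values, and the count of all called genes and that of the EIF4 rows are also given without it. Its difference of 0.64 (limma adjusted p = 0.0464) lost its call under 12 of 15 other settings. These included leaving out any DMSO library or TGH replicate 1 or 2 (adjusted p up to 0.120). Reads of this gene can be shared with a readthrough transcript from its neighbour ANKHD1. The row of that readthrough, ANKHD1-EIF4EBP3, had -0.07 and was not called (limma adjusted p = 0.72).

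EIF4E itself, the cap-binding protein, fell from 23.5, 25.0 and 23.4 TPM to 18.4, 17.0 and 19.2 TPM, by 0.38 on the log2 scale (SE 0.0507, limma adjusted p = 0.000894). No TGH library reached the lowest control. The summed mRNA of the 3 binding proteins was 5.01 ± 0.458 times that of EIF4E in DMSO and 8.91 ± 0.542 times with TGH (SD, n = 3 each), a sum formed after the values were seen. EIF4EBP1 alone was 3.53, 4.27 and 4.35 times EIF4E in the DMSO libraries and 7.77, 8.61 and 7.81 times in the TGH libraries. Of the other cap-binding relatives, EIF4E2 had 42.4 ± 0.878 TPM in the controls and 37.7 ± 3.09 TPM after TGH (SD, n = 3 each). Its difference of -0.17 was called (limma adjusted p = 0.0426), but not when any library other than TGH replicate 3 was left out (adjusted p up to 0.131). EIF4E3 was at 2.13 ± 0.208 and 1.90 ± 0.280 TPM (SD, n = 3 each), a difference of -0.11 that was not called. EIF4ENIF1, which carries eIF4E into the nucleus, had 4.90 ± 0.156 TPM in the controls and 4.96 ± 0.263 TPM after TGH (SD, n = 3 each).

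**Figure D2:**
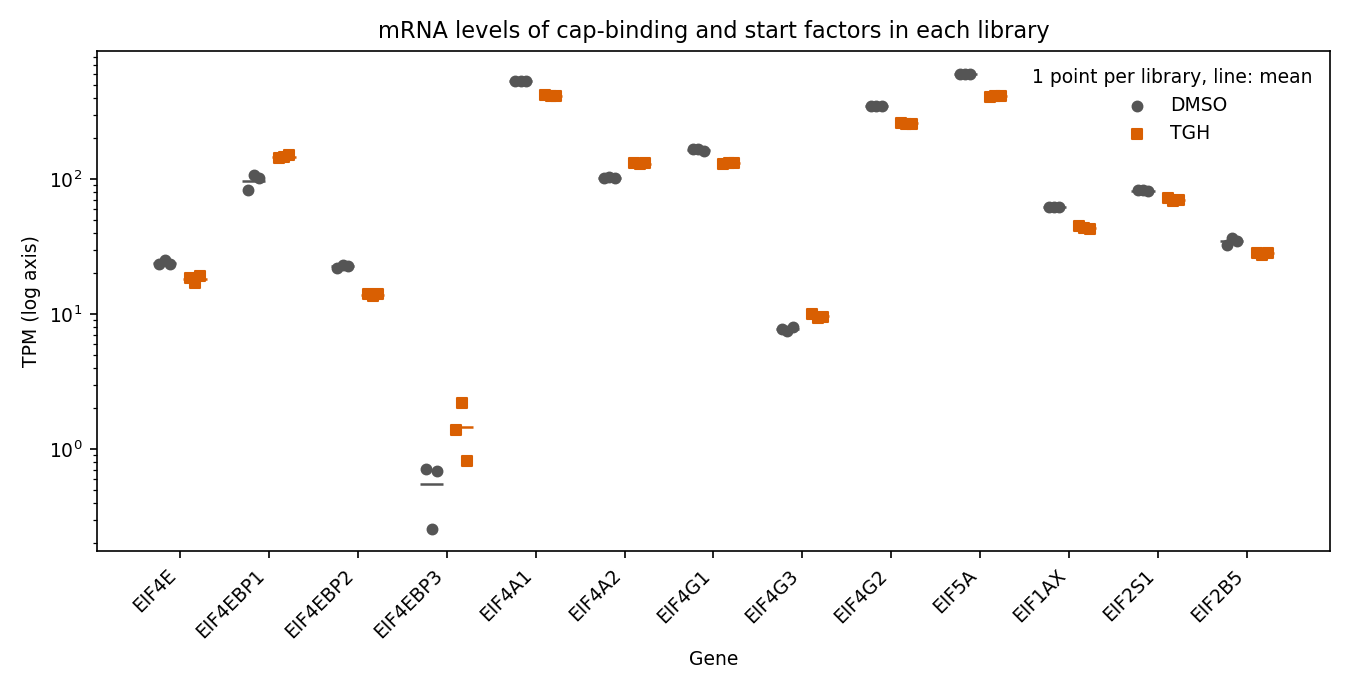
TPM of 13 translation factor mRNAs in each library, on a log axis, with DMSO as grey circles, TGH as orange squares and lines at the means. EIF4EBP1 lies higher with TGH, at 143 to 149 TPM, and EIF4EBP2, EIF4E, EIF4A1 and EIF5A lie lower.

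In the helicase and the scaffold of eIF4F the more abundant relative fell and the less abundant one rose. EIF4A1, the main eIF4A helicase, was at 534, 527 and 532 TPM in DMSO and at 419, 414 and 411 TPM with TGH. It fell by 0.36 (SE 0.0152, limma adjusted p = 9.71e-06). EIF4A2, its close relative, was at 102, 104 and 101 TPM and at 132, 128 and 130 TPM, higher by 0.34 (SE 0.0213, limma adjusted p = 3.65e-05). The libraries of a group lay close together, and the groups did not overlap for either gene. EIF4A2 made up 16.2% ± 0.240 of their summed mRNA in DMSO and 23.9% ± 0.210 with TGH, while the sum fell from 633 ± 2.38 to 545 ± 5.24 TPM (SD, n = 3 each).

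EIF4G1, the main scaffold, fell from 165, 166 and 161 TPM to 130, 131 and 131 TPM, by 0.33 (SE 0.0196, limma adjusted p = 3.15e-05). EIF4G3, the rarer scaffold, rose from 7.68, 7.47 and 8.01 TPM to 10.0, 9.29 and 9.57 TPM, by 0.29 (SE 0.0443, limma adjusted p = 0.00178). EIF4G2, a scaffold relative that does not bind eIF4E, was at 349, 344 and 348 TPM in DMSO and at 261, 255 and 256 TPM with TGH. It fell by 0.43 (SE 0.0175, limma adjusted p = 8.15e-06). All 3 scaffolds had groups that did not overlap. Of the 2 helpers of the helicase, EIF4H fell by 0.31 (limma adjusted p = 7.99e-05), from 300.4 ± 7.29 to 243 ± 3.13 TPM (SD, n = 3 each). EIF4B, the other helper, was at 70.0, 71.1 and 67.7 TPM in DMSO and rose to 82.8, 80.5 and 83.3 TPM, by 0.24 (SE 0.0278, limma adjusted p = 0.000524). EIF4A3, the helicase of the exon junction complex rather than of initiation, fell by 0.25 (limma adjusted p = 0.000193). In all, 5 of the 15 EIF4 rows were higher, 8 lower and 2 not called, and without EIF4EBP3 4 of 14 were higher. Among all genes tested 28.9% were higher and 26.3% lower.

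Ratios were compared within each library for 8 pairs of genes. With 3 libraries against 3 the smallest two-sided p of the exact permutation test is 0.1, so no pair could pass 0.05. The log2 ratio of EIF4A1 to EIF4A2 went from 2.36 ± 0.0253 to 1.66 ± 0.0166, a shift of -0.70, and that of EIF4G1 to EIF4G3 from 4.24 ± 0.0649 to 3.63 ± 0.0572, a shift of -0.61 (SD, n = 3 each, exact p = 0.1 and adjusted 0.114 for both). EIF4EBP1 over EIF4EBP2 shifted by 1.25 and EIF4EBP1 over EIF4E by 0.97. EEF1A1 over EEF1A2 shifted by 0.40 and EIF4E over EIF4E2 by -0.22. These 6 pairs had groups that did not overlap, with the same exact p. EIF1 over EIF1B was 2.95 ± 0.0944 and 2.97 ± 0.0147 (exact p = 0.8). EIF5A over EIF5A2 shifted by -0.13 on the offset scale and by 0.0026 without the offset of 1 (exact p = 0.1 and 1). On the offset scale the groups of this pair did not overlap either, with DMSO replicate 1 at 6.910 and TGH replicate 3 at 6.907.

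**Figure D3:**
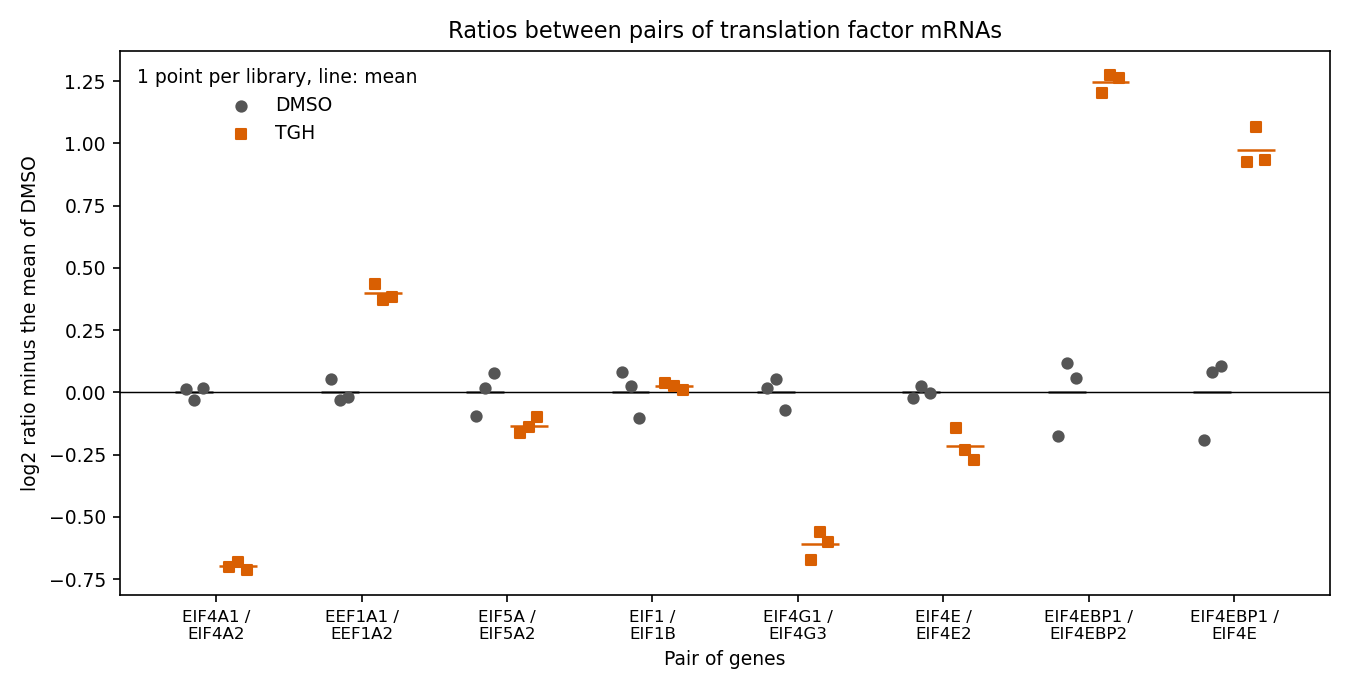
Log2 ratio of 8 pairs of translation factor mRNAs in each library, set to 0 at the mean of DMSO, with DMSO as grey circles, TGH as orange squares and lines at the means. EIF4EBP1 over EIF4EBP2 lies 1.25 higher with TGH and EIF4A1 over EIF4A2 is shifted by -0.70, while EIF1 over EIF1B overlaps.

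The eIF2 complex and its partners at the start codon had 5 lower, 0 higher and 5 uncalled genes of 10. Among all genes tested 26.3% were lower and 28.9% higher. Under quantile normalization 2 of the 10, EIF1 and EIF2D, were called higher. EIF2S1, the alpha subunit that carries the stress phosphorylation site, was at 82.7, 82.5 and 81.0 TPM in DMSO and at 71.8, 68.6 and 69.4 TPM with TGH. All TGH libraries were below all controls, a difference of -0.23 (SE 0.0257, limma adjusted p = 0.000446). EIF2S3, the gamma subunit that binds GTP and tRNA, fell by 0.22 (limma adjusted p = 0.000252), from 124 ± 1.03 to 106 ± 1.89 TPM (SD, n = 3 each). EIF2S2, the beta subunit, was at 132 ± 3.58 and 135 ± 3.14 TPM and was not called. The 3 subunits of this 1 complex were thus unequal in their change.

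EIF1AX, the scanning factor eIF1A, had the second largest fall on the log2(TPM + 1) scale of a gene outside the 4E-binding proteins. It was at 61.9, 62.1 and 62.0 TPM in DMSO and at 44.7, 43.3 and 42.9 TPM with TGH. It fell by 0.50 (SE 0.0250, limma adjusted p = 1.63e-05). EIF5, which triggers GTP hydrolysis by eIF2, fell by 0.31 (limma adjusted p = 0.000227), from 56.9 ± 0.423 to 45.6 ± 1.52 TPM (SD, n = 3 each). EIF1, which guards the choice of the start codon and was the most abundant mRNA of these 10, was at 234, 227 and 223 TPM in DMSO and at 230.4, 236 and 236 TPM with TGH. Its groups overlapped, and the difference of 0.04 (SE 0.0241, limma adjusted p = 0.238) was not called. Under quantile normalization EIF1 was at 0.08 (limma adjusted p = 0.047). EIF1B, its close relative, had 0.01, EIF2A, a factor that can deliver initiator tRNA, 0.03, and EIF2D, which acts in initiation and recycling, 0.08, none of them called. EIF2D was called without DMSO replicate 2 (0.11, limma adjusted p = 0.0377) and under quantile normalization (0.11, limma adjusted p = 0.0345). EIF1AD, a protein with an eIF1A-like domain, had -0.09 (limma adjusted p = 0.0447), a call lost when any of the 6 libraries was left out (adjusted p from 0.0561 to 0.135).

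In eIF2B, the exchange factor that phosphorylated eIF2 blocks, 1 of 5 subunit mRNAs was lower and 4 were not called. The share called lower among all genes tested was 26.3%. The lower one was EIF2B5, the catalytic epsilon subunit, at 32.4, 36.5 and 34.9 TPM in DMSO and at 28.3, 27.5 and 28.4 TPM with TGH. Its groups did not overlap, with a difference of -0.29 (SE 0.0460, limma adjusted p = 0.00199). EIF2B1, the alpha subunit and the most abundant of the 5, was at 34.6, 39.4 and 37.5 TPM and at 41.0, 39.9 and 41.5 TPM, a difference of 0.13 (SE 0.0489) that was not called (limma adjusted p = 0.056). Without DMSO replicate 2 it was called at 0.18 (limma adjusted p = 0.0174). It was also called under quantile normalization and with robust variances (limma adjusted p = 0.0182 and 0.0434). EIF2B2 had -0.11 and was called without DMSO replicate 3 (-0.16, limma adjusted p = 0.0468). EIF2B4 had -0.05, and -0.14 with DMSO replicate 3 as the only control, where the spread is that of the TGH libraries alone (limma adjusted p = 0.0453). EIF2B3 had 0.02 and was not called under any setting run.

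The 13 tested subunits of eIF3, the scaffold of the small subunit assembly, had 5 higher, 3 lower and 5 uncalled members. These were shares of 38.5% higher and 23.1% lower, against 28.9% and 26.3% of all genes tested. EIF3H, the most abundant of them, was at 346, 352 and 356 TPM in DMSO and at 413, 409 and 412 TPM with TGH, higher by 0.23 (SE 0.0171, limma adjusted p = 8.11e-05). EIF3F, its partner in the same module, was at 126, 144 and 156 TPM and at 169, 167 and 166 TPM. The controls spread widely, with DMSO replicate 1 the lowest library, and all TGH libraries lay above them. EIF3F was higher by 0.24 (SE 0.0712, limma adjusted p = 0.0269), a call lost without DMSO replicate 2 or any one TGH replicate (adjusted p up to 0.0811). EIF3E rose by 0.12 and EIF3L by 0.11 (limma adjusted p = 0.00709 and 0.0104). With DMSO replicate 3 as the only control EIF3E had 0.08 (limma adjusted p = 0.0927, with the spread of the TGH libraries alone). EIF3D, which can itself bind the cap, had 0.06 (limma adjusted p = 0.044) and lost its call when any of the 6 libraries was left out (adjusted p from 0.0545 to 0.152).

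EIF3B, the core of a second module that also holds EIF3G and EIF3I, fell by 0.30 (limma adjusted p = 3.06e-05), from 196 ± 2.17 to 159 ± 0.329 TPM (SD, n = 3 each). EIF3I fell by 0.09 (limma adjusted p = 0.00437), EIF3G had -0.03 and was not called, and EIF3J, a loosely bound subunit, fell by 0.21 (limma adjusted p = 0.01). Grouped in this way after the values were seen, the 8 subunits of the octamer that carries EIF3E, EIF3F, EIF3H and EIF3L had 4 higher and 0 lower members, and the 3 subunits EIF3B, EIF3G and EIF3I had 0 higher and 2 lower. EIF3A, EIF3K and EIF3M of the octamer had -0.08, -0.05 and -0.01, not called. Under median scaling EIF3A and EIF3K were called lower (-0.11 and -0.080, limma adjusted p = 0.0167 and 0.0176), so the count of 0 lower in the octamer does not hold there. EIF3C was listed at only 3.08 TPM over all libraries, where the median of the tested subunits was 155 TPM. It has a near-identical copy, EIF3CL, listed at most at 0.113 TPM, so the values of both are uncertain.

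EIF5A, EIF5A2, EIF5B and EIF6, which act in elongation, subunit joining and upkeep of the large subunit, were all lower. The share called lower among all genes tested was 26.3%. EIF5A, which needs the modified amino acid hypusine and relieves stalled ribosomes, was at 597, 604 and 594 TPM in DMSO and at 405, 410 and 411 TPM with TGH. This was a difference of -0.55 (SE 0.0151, limma adjusted p = 1.79e-06), with no overlap. EIF5A2, its rare relative, was at 3.97, 3.65 and 3.40 TPM and at 2.53, 2.52 and 2.44 TPM, a difference of -0.42 (SE 0.0615, limma adjusted p = 0.00146). EIF5B, the GTPase of subunit joining, fell by 0.16 (limma adjusted p = 0.00381). EIF6, which keeps the large subunit from joining too early, had -0.10 (limma adjusted p = 0.0148), from 361 ± 10.6 to 337 ± 5.40 TPM (SD, n = 3 each), and was not called without TGH replicate 1 (-0.09, limma adjusted p = 0.0528). EIF5AL1, a near-identical copy of EIF5A under the filter, was at 0.531 ± 0.195 and 0.237 ± 0.0615 TPM and may share its reads.

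Of 8 elongation factor genes 4 rose, 1 fell and 3 did not pass the test. Among all genes tested 28.9% were higher and 26.3% lower. The 4 that rose form the eEF1 complex. EEF1A1, which delivers charged tRNAs and was the most abundant mRNA of all 60 rows, was at 2122, 2093 and 2105 TPM in DMSO and at 2204, 2210.2 and 2230.3 TPM with TGH. The groups did not overlap, but the difference was only 0.07 (SE 0.0115, limma adjusted p = 0.00199), and it was -0.011 (adjusted p = 0.65) under quantile normalization. It lost its call without the trend on expression (adjusted p = 0.0638). EEF1G, the gamma subunit of its exchange factor, rose from 906, 905 and 897 TPM to 1041, 1063 and 1066 TPM, by 0.23 (SE 0.0146, limma adjusted p = 4.27e-05). EEF1D and EEF1B2, the other exchange factor subunits, rose by 0.16 and 0.12 (limma adjusted p = 0.000504 and 0.00137).

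EEF1A2, the relative of EEF1A1 whose expression is normally restricted to a few tissues such as muscle and brain, fell by 0.32 (limma adjusted p = 0.000178), from 149 ± 3.75 to 119 ± 3.28 TPM (SD, n = 3 each). EEF2, the translocation factor, was at 491, 496 and 487 TPM in DMSO and at 488, 505 and 506 TPM with TGH. The groups overlapped and the difference of 0.02 (SE 0.0197, limma adjusted p = 0.343) was not called, though it was 0.09 (adjusted p = 0.0252) under quantile normalization. EEF2K, the kinase that inhibits eEF2, was at 3.64, 3.95 and 3.35 TPM and at 3.13, 3.27 and 3.16 TPM, a difference of -0.15 (SE 0.0620) that was not called (limma adjusted p = 0.0795). Without DMSO replicate 3 it was called at -0.20 (limma adjusted p = 0.0397). Under median scaling and quantile normalization it was called at -0.18 and -0.26 (limma adjusted p = 0.0445 and 0.0149). EEF1E1, which belongs to the multi-tRNA synthetase complex rather than to eEF1, had -0.07 and was not called.

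Many mRNAs of the translation machinery begin with a 5′ terminal oligopyrimidine (TOP) tract, a C followed by a run of C and T, through which their translation follows mTORC1. Of 9 translation factor genes known for such mRNAs, EEF1A1, EEF1B2, EEF1D, EEF1G, EIF3E, EIF3F, EIF3H and EIF4B were higher and EEF2 was not called, with 0 lower. The other 47 tested rows had 6 higher and 22 lower, and the 6 include EIF4EBP3, which passed the filter only through its TGH values. This division of the genes was made after their values were seen and is a description. The counts depend on which genes are taken as known. The other rows include EIF3D and EIF4A2, called higher, EIF2S3, called lower, and EIF2A, EIF2D, EIF3K and EIF3M, not called. All of these have a C and at least 4 pyrimidines at a RefSeq start, as described below. PABPC1, outside these rows but also the product of a TOP mRNA, had -0.12 and was called lower. The median difference was 0.16 in the 9 and -0.10 in the others, against 0.02 for all genes tested. Under the 16 other settings 7 or 8 of the 9 were higher and 0 lower, and quantile normalization called EEF2 in place of EEF1A1. Cytosolic ribosomal protein genes, the largest class of such mRNAs, had 55 higher and 5 lower of 77 tested. By share, 88.9% of the 9, 12.8% of the other 47 and 71.4% of the 77 were higher, against 28.9% of all genes tested. The shares that were lower were 0%, 46.8% and 6.49%, against 26.3%.

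The first bases of the transcripts were read from RefSeq promoter sequences of build GRCh38.p14, in which 48 of the 60 rows were matched by symbol. The unmatched rows were EEF1D, EIF3E, EIF3H, EIF3L and EIF4EBP1, called higher, and EEF1A2, called lower. Also unmatched were EIF2S2, EIF3A, EIF3G and EEF1E1-MUTED, not called, and EEF1DP3 and EIF3CL, under the filter. The 10 starts shown are 9 of genes that rose or fell above and that of EEF2, which was not called. Each window holds 10 bases before the start and 20 from it, and capitals mark the run of pyrimidines from a C at the first base.
EEF1A1: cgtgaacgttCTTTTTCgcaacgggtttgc
EEF1B2: ctcttcgggtCCTTTTTCCTCTCTTCagcg
EIF3F: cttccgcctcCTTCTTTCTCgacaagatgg
EIF4B: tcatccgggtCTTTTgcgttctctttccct
EIF4A2: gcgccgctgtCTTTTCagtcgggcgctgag
EEF2: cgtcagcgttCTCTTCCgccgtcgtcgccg
EIF2S3: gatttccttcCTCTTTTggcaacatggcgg
EEF1G: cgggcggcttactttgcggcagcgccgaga
EIF4A1: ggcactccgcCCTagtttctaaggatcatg
EIF4E: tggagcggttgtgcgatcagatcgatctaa

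The windows on the plus strand are those of EEF1B2 (chr2:206159885-206159914), EIF3F (chr11:7987327-7987356), EIF4B (chr12:53006446-53006475), EIF4A2 (chr3:186783567-186783596), EIF2S3 (chrX:24054946-24054975) and EIF4A1 (chr17:7572815-7572844). Those on the minus strand are EEF1A1 (chr6:73521013-73521042), EEF2 (chr19:3985444-3985473), EEF1G (chr11:62573872-62573901) and EIF4E (chr4:98929114-98929143). For EEF1B2, with 2 starts in the table, the start with the longest run is shown. EIF4A1 and EIF4E, which fell, have 3 and 0 pyrimidines from a C at the first base. EEF1G, which rose and is known for a TOP mRNA, has an A at its RefSeq start in front of 4 pyrimidines. EIF2S3 has a run of 7 and fell.

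A C at the first base followed by at least 4 pyrimidines, read on the strand of the gene, was found at 1 or more starts of 12 of the 48 matched genes (25%), of 7.47% of the 8794 tested genes with a RefSeq start and of 5.14% of all 27305 genes in the RefSeq table. Of these 12 translation factor genes 6 rose, 1 fell and 5 did not pass the test, and their median was 0.07. The 34 tested genes without such a start had 3 higher, 20 lower and 11 not called, with a median of -0.16. The 3 higher were EIF4G3, EEF1G, which is known for a TOP mRNA, and EIF4EBP3, which passed the filter only through its TGH values. The 12 were EEF1A1, EEF1B2, EIF3D, EIF3F, EIF4A2 and EIF4B, called higher, EIF2S3, called lower, and EEF2, EIF2A, EIF2D, EIF3K and EIF3M, not called. EIF4A2 has such a start and EIF4A1 does not, and they changed in opposite directions. EIF4G3 and EIF4G1 also changed in opposite directions, and neither has such a start. The 602 tested genes that have such a start and are neither translation factors nor ribosomal proteins were higher in 28.6% and lower in 25.7%, with a median of -0.00057. The letters CACGTG, an E-box read by factors such as MYC, occurred on either strand in the window from 250 bases before to 50 after the start of 13 of the 48 genes (27.1%), of 12.8% of the tested genes and of 8.77% of all genes. Of the 12 tested translation factor genes with it 3 were higher and 5 lower, and of the 34 without it 6 were higher and 16 lower. The 3 higher genes with it include EIF4EBP3, which passed the filter only through its TGH values. Each match is a description of these letters only, and was not tested.

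**Figure D4:**
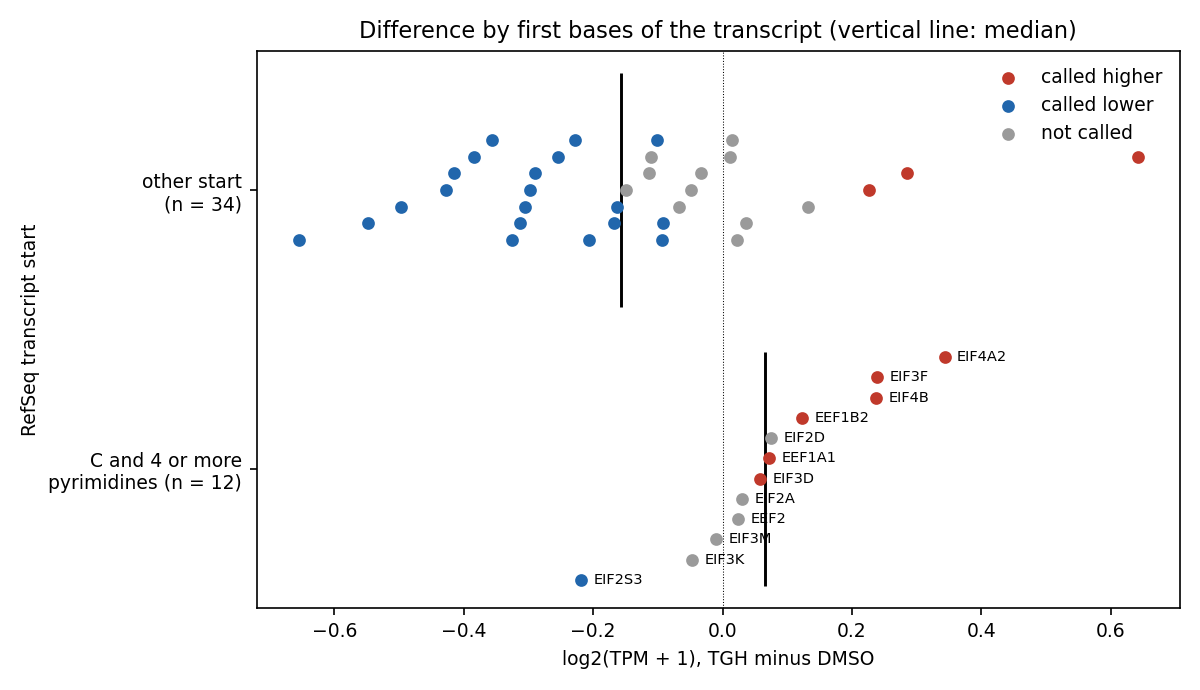
Differences TGH minus DMSO on the log2(TPM + 1) scale of 46 tested translation factor genes with a RefSeq start, split by whether the transcript begins with a C and at least 4 pyrimidines. Points are genes, coloured by call and spread vertically for legibility, and black lines are medians, 0.07 for the 12 genes with this start and -0.16 for the 34 others.

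The 4 rows under the filter and the row of a readthrough transcript carry little. EEF1DP3, a pseudogene, was listed at 0 in 5 libraries, EIF1B-AS1, an RNA antisense to EIF1B, reached 0.080 TPM, and EIF3CL and EIF5AL1 are given above. EEF1E1-MUTED, a readthrough from EEF1E1 into its neighbour, was at 2.96, 3.004 and 3.43 TPM in DMSO and at 5.78, 0.000846 and 4.75 TPM with TGH, so TGH replicate 2 stands apart and the row was not called. Without that library it was called at 0.60 (limma adjusted p = 0.00552). Its reads may be shared with EEF1E1.

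Other genes around these factors, 61 in 7 lists, had 17 higher (28.3%) and 21 lower (35%) of 60 tested. Of all genes tested 28.9% were higher and 26.3% lower, 55.2% called in all, and each list below is to be read beside these shares. The lists were written down with earlier results of these data known. Of the 4 eIF2 kinases and the 2 phosphatase subunits that act against them, 3 were higher and 2 lower, and with GCN1L1 and IMPACT, which regulate the kinase GCN2, 4 of 8 were higher and 2 lower. PPP1R15A, the inducible subunit that directs the phosphatase to eIF2, rose by 0.92 and EIF2AK3, the kinase PERK of the endoplasmic reticulum, by 0.64 (limma adjusted p = 2.04e-05 and 6.23e-05). EIF2AK4, the amino acid sensor GCN2, fell by 0.12. Termination and recycling had 0 higher and 4 lower of 8, with DENR, a recycling factor, at -0.31 and GSPT1 and ABCE1 at -0.28 each (limma adjusted p from 0.000193 to 0.000649).

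Poly(A)-binding proteins and partners had 1 higher and 3 lower of 6, with PABPC4 at -0.20 and PABPC1, itself the product of a TOP mRNA, at -0.12 (limma adjusted p = 0.000455 and 0.00141). Regulators of cap binding, listed together with genes of the mTORC1 arm and kinases of eIF4E, had 5 higher and 1 lower of 10. MKNK2, a kinase that phosphorylates eIF4E, rose by 0.52 and GIGYF1, a partner of EIF4E2, by 0.18 (limma adjusted p = 0.000262 and 0.00394). Helicases and accessory initiation proteins had 2 higher and 5 lower of 8, with DHX9 at -0.51, ABCF1 at -0.31 and CTIF at 0.56 (limma adjusted p = 1.45e-05, 0.000365 and 0.00119). Among the enzymes that modify eIF5A and the elongation factors, 3 of 10 were higher and 2 lower. METTL13, which methylates eEF1A, fell by 0.42 and DOHH, which completes hypusine on eIF5A, by 0.25 (limma adjusted p = 3.08e-05 and 0.00926). ATPBD4, which completes diphthamide on eEF2, rose by 0.65 (limma adjusted p = 0.0101). Mitochondrial translation factors had 2 higher and 4 lower of 10, with MTRF1L, a release factor, at -0.29, TUFM, the mitochondrial counterpart of eEF1A, at -0.11 and GFM2, a recycling factor, at 0.19 (limma adjusted p = 0.0033, 0.00399 and 0.00486).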

How the data were processed

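RNA of 6 PC-3 libraries, 3 with DMSO and 3 with TGH, was deposited by the authors as a table of log2(TPM + 1) values for 18780 gene symbols, with hg19 as the build per the submitters' processing notes. Per the labels' protocols, ribosomal RNA was removed and directional libraries were prepared, and samples had a minimal RIN of 7. No aligner or counter is named in the sources used here, so whether strand was used in counting is unknown. TPM keeps no depth, so the depth is unknown and no counting interval is given.

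TPM was recovered as 2 to the deposited value minus 1. Genes with a mean under 1 TPM over the 6 libraries were left out, and 12018 were fitted with limma 3.58.1 in R 4.3.3 (empirical Bayes with a trend on expression), TGH against DMSO without a block, with Benjamini-Hochberg adjustment over all of them. The offset of 1 makes differences of low genes smaller than their fold in TPM. The code was tested on simulated data. Ratios of 8 pairs were compared with two-sided exact permutation tests. Same-numbered libraries of the 2 groups had correlated deviations of 0.0088, 0.054 and 0.228, and different-numbered ones ranged from -0.158 to 0.096. These few values do not settle whether the numbers pair the libraries. The main fit took no pairing, and a fit with a block is given below.

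The members and gene lists were chosen with earlier results of these data known. Every translation factor may be named. Values in each library are given for 10 genes whatever their result, for the 8 called genes with non-overlapping groups that rose most and the 8 that fell most, and for the most abundant gene of each role. Up to 3 genes with the smallest p are named from each list of other genes. Sequences are from RefSeq promoters of GRCh38.p14, matched by symbol. Alternatives were other pseudocounts, filters, scalings and variance models, a replicate block, and leaving out each library.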

Additional observations from a re-analysis of the deposited data

How the results depend on the processing

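Over 16 other settings, 11 to 16 translation factor genes were called higher and 19 to 25 lower. Leaving out 1 library at a time gave 11 to 13 and 19 to 22, and for the other gene lists 12 to 17 and 18 to 21. A fit with the replicate number as a block called 12 higher and 20 lower, and 15 and 20 in the other lists, though the numbers were not shown to pair the libraries. Of the 36 called translation factor genes 28 kept call and direction under every setting run, and 8 lost the call under at least 1.

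Directions turned mainly for differences near 0, and the cause was not tested. EIF5A over EIF5A2 was 0.0026 without the offset. With 1 library left out at a time, EIF1 over EIF1B ranged from -0.027 to 0.065, EIF4A1 over EIF4A2 from -0.71 to -0.69, EEF1A1 over EEF1A2 from 0.38 to 0.42, EIF5A over EIF5A2 from -0.18 to -0.095, EIF4G1 over EIF4G3 from -0.65 to -0.58, EIF4E over EIF4E2 from -0.25 to -0.19, EIF4EBP1 over EIF4EBP2 from 1.16 to 1.30 and EIF4EBP1 over EIF4E from 0.88 to 1.03. Among single genes EEF1E1-MUTED ranged from -0.78 to 0.60, EIF1B from -0.0096 to 0.046, EIF3C from -0.082 to 0.040, EIF3M from -0.054 to 0.032 and EIF4ENIF1 from -0.019 to 0.044.

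Under median scaling EEF2 was at -0.0092, EIF1B at -0.022, EIF2A at -0.0025, EIF2B3 at -0.0098 and EIF4ENIF1 at -0.019. Under quantile normalization EEF1A1 was at -0.011, EIF3G at 0.010, EIF3M at 0.047 and EIF4ENIF1 at -0.068. With DMSO replicate 3 as the only control EIF1B was at -0.059 and EIF3C at 0.059. The median over all genes was 0.02, and -0.02 and -0.03 under median scaling and quantile normalization. TPM gives no depth, so counting error at low levels is unknown.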
